A study of Homo sapiens with 4 samples.

Results

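The comparison described here set HCT116 cells carrying a non-targeting short hairpin RNA vector (shCTRL in the text) against HCT116 cells that had not been transfected. It rests on 2 of the 4 arrays of the series, 1 for each state, chosen by their titles. On these arrays 19775 genes were represented by probe sets with 1 gene symbol, and 12468 of them were bright enough to be analysed. HCT116 is an established human colorectal carcinoma cell line. The shCTRL cells, like the cells with KSR1 hairpin #1 and KSR1 hairpin #2 on the other arrays, had received their vector by lipofection and had been selected as clones with puromycin, per the labels. The untransfected cells had neither a vector nor, as far as the labels say, the selection. All cells were grown in DMEM with 10% serum, and 2.5 micrograms of total RNA were labelled for each array. The shCTRL array therefore differs from the untransfected one in transfection, hairpin, drug selection, clone, culture and array together, and these cannot be told apart. The labels do not state whether the shCTRL array holds 1 clone or a pool.

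A short hairpin RNA is cut by Dicer into a small interfering RNA that Argonaute proteins load and use to silence transcripts with a matching sequence. A non-targeting hairpin has no intended match and serves as the control for vector, hairpin processing and selection. Puromycin blocks translation and kills cells that lack the resistance gene of the vector, so surviving clones descend from few cells. Lines such as HCT116 hold cells that differ in genotype and expression, and a clone carries the state of its founder as well as any effect of the vector.

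Values are linear intensities as deposited. A difference is always shCTRL minus untransfected on the log2(intensity + 16) scale, which understates differences of dim genes. With 1 array per state there are no replicates, so no test or error of a difference can be given. Precision is limited by how few arrays there are. A gene is called 2-fold when its difference reaches 1 log2 unit in either direction. As a guide to size only, the differences of the 500 analysed genes nearest in brightness are described by their central 95% range, called the like-brightness range, which is not a replicate error.

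The arrays were alike in their technical readouts, with medians of 52.0 and 51.8 and 95th percentiles of 1405 and 1395 in untransfected and shCTRL cells. The 18 hybridization controls had geometric means of 1770 and 1820. For actin, the 3' probe set over the 5' one gave 2.68 in untransfected and 2.09 in shCTRL cells, a readout that grows as RNA is degraded. For GAPDH the same ratio was 1.16 and 1.17. Of 57 control probe sets above the filter, 0 differed 2-fold, and the largest difference was 0.68 for an 18S ribosomal RNA probe set. Whether these readouts play a part in any difference below was not tested. KSR1, the target of the other 2 hairpins, had intensities of 209 in untransfected and 211 in shCTRL cells on its brightest probe set, a difference of 0.01.

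The cells of both arrays carried epithelial transcripts. Of 17 colorectal epithelium markers 14 passed the filter, and CDH1, encoding E-cadherin, had intensities of 1660 and 1775 in untransfected and shCTRL cells. LGALS4, CDH17 and GPA33, which mark differentiated intestinal epithelium, were below the filter. Summed intensities of these markers were 40847 and 41533. Most markers of other cell types were below the filter. Of the fibroblast, leukocyte and endothelial markers 5 of 14, 2 of 13 and 2 of 9 passed the filter. Summed intensities were 1122 and 1125 for fibroblast markers, 373 and 382 for leukocyte markers and 326 and 344 for endothelial markers, in untransfected and shCTRL cells. The defining genes PDGFRB, PTPRC and CDH5 were below the filter, PTPRC at 16.5 and 17.4. Fibroblast markers above it included COL1A1 (433 and 400) and ACTA2 (203 and 206).

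Most transcripts were alike on the 2 arrays. The median difference over all analysed genes was 0.02, the SD 0.28, and 94.2% of genes lay within 0.5 log2 units. Past the 2-fold rule lay 60 genes that were higher in shCTRL cells, 0.481% of those analysed, and 46 that were lower, 0.369%. Differences of at least 2 log2 units were found for 6 higher and 8 lower genes. The 2-fold genes were spread over the brightness range, with 10 higher and 6 lower among the brightest 3117 genes and 18 and 12 among the dimmest 3117. At the edge of the rule, the smallest counted differences were 1.00035 and -1.02, and the nearest not counted were 0.999 and -0.985. The same rule gave 31 higher and 63 lower genes for KSR1 hairpin #1 and 161 and 123 for hairpin #2, each against the same untransfected array.

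**Figure D1:**
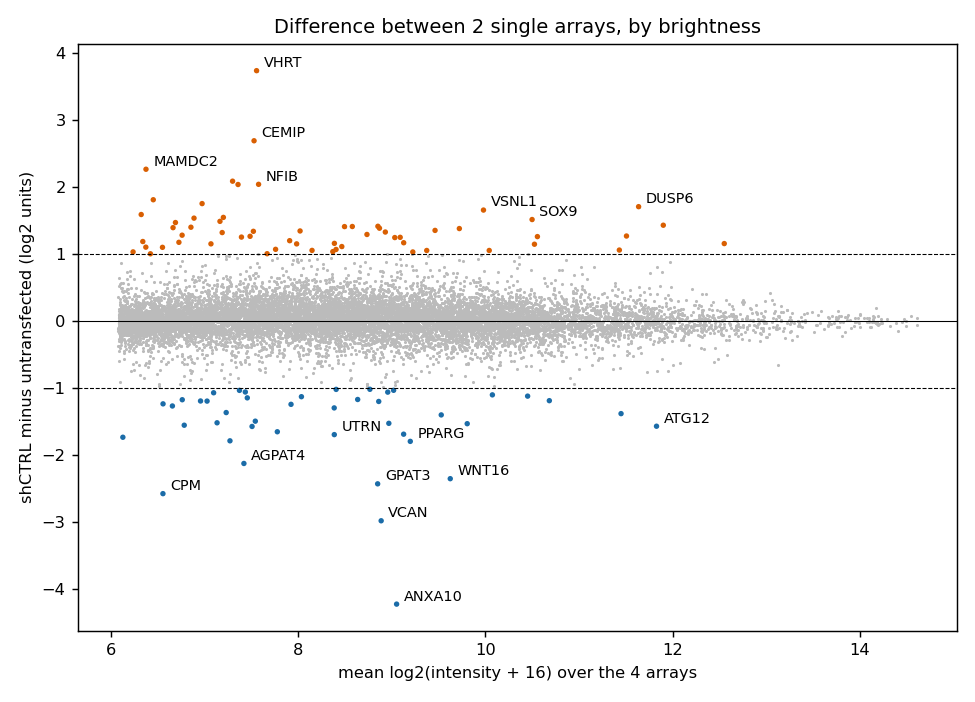
Each point is an analysed gene, with its mean log2(intensity + 16) over the 4 arrays on the horizontal axis and the difference of shCTRL minus untransfected in log2 units on the vertical axis. Coloured points lie past the dashed lines at 1 and -1. ANXA10 at -4.22 and VHRT at 3.73 are the extremes, and the bulk of genes lies within 0.5 of 0 at every brightness.

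Other probe sets of the same genes mostly pointed the same way. They share the array and the RNA and are not replicates. Only those above the filter, which averages these same arrays, were counted, and many dimmer ones differed little. No share of agreement over other genes was computed. For 48 of the 2-fold genes there were 78 further probe sets above the filter, and 75 of these differed in the same direction, 56 by at least 0.5 and 40 by at least 1 log2 unit. The 3 exceptions, named for their disagreement, belonged to the choline phosphotransferase gene CHPT1 (0.30 against -1.53), the kinase gene PRKAA2 (-0.08 against 1.28) and the smooth muscle gene TAGLN (-0.01 against 1.15).

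Genes that were lower in shCTRL cells were led by ANXA10, a member of the annexin family of calcium-dependent membrane-binding proteins. ANXA10 had an intensity of 4170 in untransfected and 208 in shCTRL cells, and of 66.3 and 1013 with KSR1 hairpins #1 and #2. Untransfected cells were the highest of the 4 arrays and hairpin #1 cells the lowest. The difference was -4.22, against a like-brightness range from -0.55 to 0.65. The other annexins did not share it. Of 10 annexin genes analysed, ANXA10 was the only one 2-fold lower, against 0.369% of all genes. ANXA11 was at -0.53 and ANXA1 at -0.40 (-0.14 and -0.21 averaged over their probe sets), and the median was -0.03.

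Genes of the pericellular matrix differed in both directions. Hyaluronan is a long sugar polymer made at the cell surface by HAS enzymes, bound by CD44 and by proteoglycans such as versican, and broken down with the help of CEMIP. VCAN, encoding versican, had intensities of 1584 in untransfected, 187 in shCTRL, 253 in hairpin #1 and 561 in hairpin #2 cells, a difference of -2.98. All 4 further VCAN probe sets were lower too, with differences of -2.07 to -2.93. HAS3, a hyaluronan synthase, was at 2217 and 1010 in untransfected and shCTRL cells (-1.12, or -0.61 averaged over its probe sets). In contrast, CEMIP was at 93.5 in untransfected and 689 in shCTRL cells, and at 129 and 87.9 with the hairpins. Its difference was 2.69, and 1.44 when its probe sets were averaged, because a second and dimmer probe set differed by 0.20. The receptor CD44 was at 3539 and 5848 (0.72, or 0.41 averaged over its probe sets). Of the 17 hyaluronan and proteoglycan genes analysed, CEMIP was 2-fold higher and VCAN and HAS3 were 2-fold lower, against 0.481% and 0.369% of all genes. The list median was 0.14. High CEMIP was thus seen in shCTRL alone among the 4 arrays, whereas VCAN was lower than in untransfected cells on all 3 transfected arrays, hairpin #2 included (-1.47).

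Enzymes that build glycerolipids were among the lower genes. GPAT3 adds the first fatty acid to glycerol phosphate and AGPAT4 the next. GPAT3 was at 979 in untransfected and 169 in shCTRL cells, with 507 and 455 for the hairpins in order (-2.43). AGPAT4 was at 528 in untransfected cells and at 109, 89.5 and 105 in shCTRL, hairpin #1 and hairpin #2 cells (-2.13). The untransfected array thus stood apart from all 3 transfected ones for AGPAT4, whereas shCTRL had the lowest GPAT3. The related phosphatase gene PLPP3 was higher in shCTRL (0.70), as was the acyltransferase gene GPAT2 (0.52). Of 20 members analysed, 2 were 2-fold lower and 0 were 2-fold higher, against 0.369% and 0.481% of all genes. The list median was 0.06.

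Other strongly lower genes came from several functions. CPM, encoding the membrane carboxypeptidase M, was at 331 in untransfected cells but at 42.2, 45.3 and 47.5 in shCTRL, hairpin #1 and hairpin #2 cells, all below the filter value of 51.7. Its difference was -2.58, and its further probe sets, all dimmer, differed by -0.03 to -1.24. PPARG, a lipid-sensing nuclear receptor, was at 1004 and 278 in untransfected and shCTRL cells, at 314 with hairpin #1 and at 1188 with hairpin #2 (-1.80). UTRN, encoding the cytoskeletal linker utrophin, was at 833 against 246, 210 and 233 (-1.70). As for CPM and AGPAT4, the 3 transfected arrays were close to each other and apart from the untransfected one. TMEM158, a gene first described as induced by oncogenic RAS, was at 1369 in untransfected cells and at 413, 324 and 468 in the others (-1.69). ARHGAP26, encoding a GTPase-activating protein, was at 438 and 128 (-1.65, or -0.90 averaged over its probe sets). GRHL3, an epithelial transcription factor, was at 162 in untransfected and 207 in hairpin #2 cells, but below the filter value in shCTRL (44.6) and hairpin #1 cells (45.4).

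Several of the genes highest in shCTRL relative to untransfected cells were noncoding or dim in untransfected cells. VHRT, a long noncoding RNA, had intensities of 64.9 in untransfected, 1058 in shCTRL, 154 in hairpin #1 and 68.9 in hairpin #2 cells. Its difference of 3.73 was the highest of all analysed genes, against a like-brightness range from -0.50 to 0.67. MAMDC2 was at 202 in shCTRL cells and below the filter value in untransfected (29.6) and hairpin #2 cells (31.5). The noncoding LINC00326 was at 73.6 and 364 in untransfected and shCTRL cells, with 173 and 80.2 for the hairpins (2.08). For VHRT, CEMIP, MAMDC2 and LINC00326 alike, shCTRL was the highest array, hairpin #1 came next, and hairpin #2 was near untransfected.

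SEMA3A, a secreted guidance factor that repels growing axons, was at 74.0 in untransfected and 352 in shCTRL cells, with 77.3 and 219 for hairpins #1 and #2 (2.03, or 1.29 averaged over its probe sets). Of the other semaphorins, 2 were at least 0.5 log2 units lower, against 2.37% of all genes. They were SEMA3C (380 and 205, -0.84, or -0.52 averaged over its probe sets) and SEMA4B (1684 and 1061, -0.66). Of 22 genes of semaphorins and their receptors, SEMA3A was 2-fold higher and 0 were 2-fold lower, against 0.481% and 0.369% of all genes. The list median was 0.07. MAML2, a coactivator of Notch receptors, was at 60.8 and 242 (1.75), VSNL1, a neuronal calcium sensor, at 512 and 1644 (1.65), and ITGB8, an integrin that activates latent TGF-beta, at 41.3 and 156 (1.59). Untransfected ITGB8 was below the filter value of 51.7. The further ITGB8 probe sets differed by -0.06 to 0.15 and the further MAML2 one by 0.22, all of them below the filter. Averaged over their probe sets, both genes fell below the filter. In hairpin #1 and #2 cells ITGB8 was at 44.1 and 53.7, close to untransfected cells, whereas VSNL1 was at 1298 and 888, between the 2 states.

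**Figure D2:**
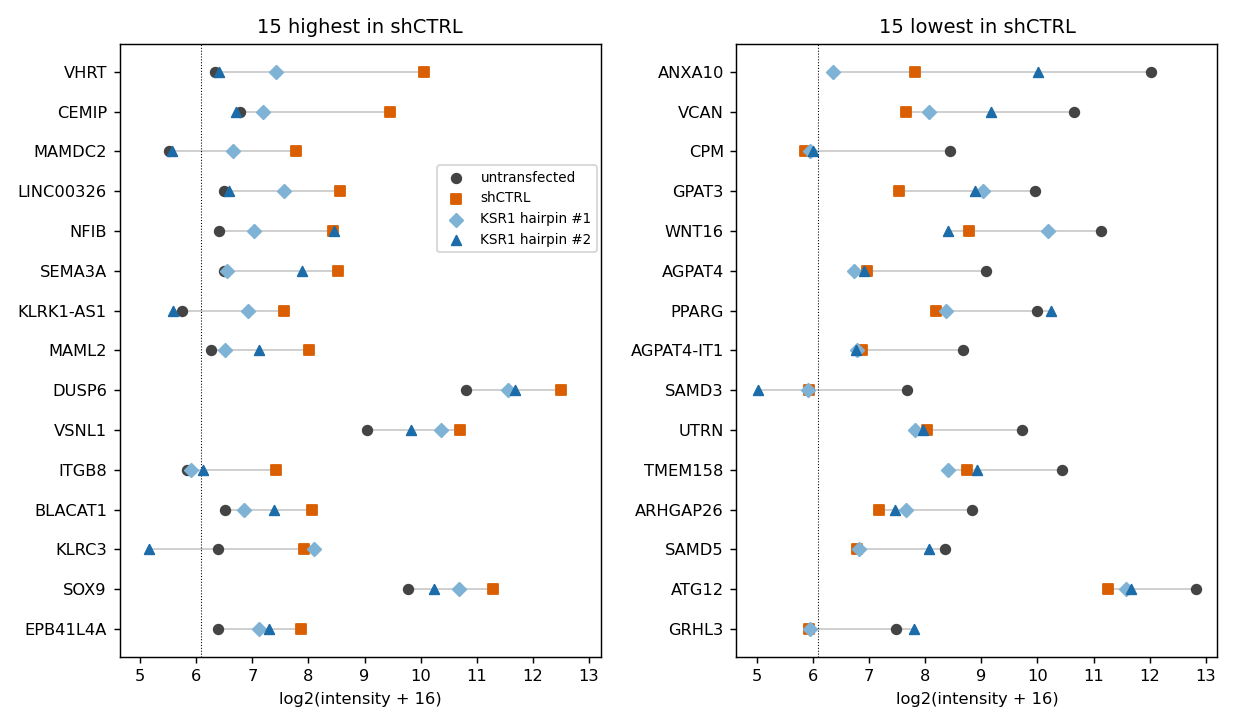
The 15 highest (left) and 15 lowest (right) genes of shCTRL minus untransfected are shown with 1 symbol per array on the log2(intensity + 16) scale. The lowest are those reported by name, and 3 genes not named rank among them. The dotted line marks the filter value of 6.08. Among the lowest genes, AGPAT4, CPM and UTRN have the 3 transfected arrays together and untransfected cells apart.

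The KSR1 hairpin arrays were placed between the 2 states gene by gene. This describes levels only, since the genes had been chosen on 2 of the 4 arrays. Of the 60 genes higher in shCTRL, both hairpin arrays lay nearer to shCTRL for 15 and nearer to untransfected cells for 18. For the rest they parted, hairpin #1 alone lying nearer to shCTRL for 13 genes and hairpin #2 alone for 14. Of the 46 genes lower in shCTRL, both hairpin arrays lay nearer to shCTRL for 20 and nearer to untransfected cells for 4, while hairpin #1 alone lay nearer to shCTRL for 19 and hairpin #2 alone for 3. Untransfected cells were the highest of the 4 arrays for 31 of these 46 genes, and shCTRL the lowest for 22. For the 60 higher genes, shCTRL was the highest array for 42 and untransfected cells the lowest for 39.

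HCT116 retains a p53 response, in which the transcription factor p53 induces genes of cell cycle arrest, cell death and DNA repair after stress. The p53 targets were mostly slightly higher in shCTRL cells. Of 50 targets listed, 41 were analysed, and 35 were above 0, where 54% of all genes were. Of the 41, 7 were at least 0.5 log2 units higher and 0 at least 0.5 lower, against 3.38% and 2.37% of all genes. The median was 0.19, against 0.02 over all genes. The lean of p53 targets was known from earlier results on these arrays when the list was drawn up, so it is no independent support.

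Among the arrest and feedback genes, PLK2, a stress-induced kinase, had intensities of 449 in untransfected and 834 in shCTRL cells, with 503 and 914 for hairpins #1 and #2 (0.87). CDKN1A, encoding a cell cycle inhibitor, was at 1764 and 2474, with 2058 and 1702 for the hairpins (0.48). TP53INP1, which assists p53, was at 385 and 707 (0.85, or 0.25 averaged over its probe sets). Of 15 members analysed 12 were above 0, with a median of 0.23. MDM4, an inhibitor of p53, was lower at 1516 and 1119 (-0.43). MDM2, the ubiquitin ligase that removes p53 and a member chosen here for its role, was at 650 and 768 (0.23), inside its like-brightness range from -0.50 to 0.58.

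Among the death genes, TP53I3, an oxidoreductase gene, was at 149 and 295 in untransfected and shCTRL cells (0.91). BAX, which permeabilises mitochondria, was at 207 and 281 (0.41), and BCL2L1, which restrains it, at 627 and 897 (0.51). Both differences lay inside their like-brightness ranges, which reached 0.59 and 0.57. The apoptosome gene APAF1 was lower at 437 and 381 (-0.19). Of 13 death genes 11 were above 0, with a median of 0.14. Of 13 repair, metabolism and secreted factor genes 12 were above 0, with a median of 0.21. In this group GDF15, a stress-induced cytokine, was the only 2-fold p53 target. It was at 1680 in untransfected and 4061 in shCTRL cells, with 2919 and 3519 for the hairpins (1.27). Averaged over its probe sets, its difference was 0.51. The DNA damage sensors DDB2 (659 and 920, 0.47) and XPC (672 and 914, 0.43) were higher in shCTRL than in any of the other 3 arrays. Their differences also lay inside their like-brightness ranges, which reached 0.55 and 0.58.

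**Figure D3:**
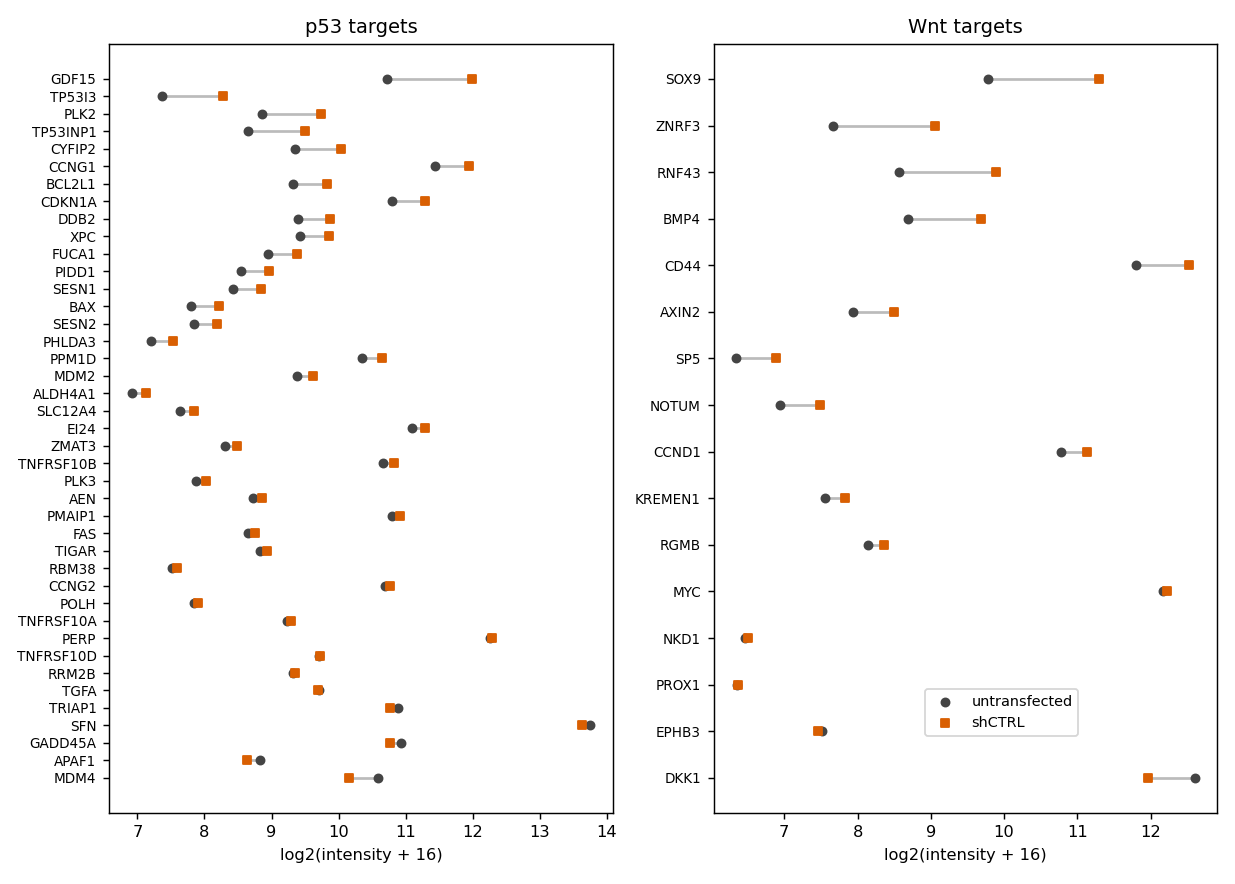
The log2(intensity + 16) values of untransfected (circles) and shCTRL cells (squares) are joined for the 41 analysed p53 targets (left) and the 16 analysed Wnt targets (right), ordered by difference. Of the p53 targets 35 and of the Wnt targets 14 have the square to the right.

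Wnt signalling keeps beta-catenin from degradation, so that it can activate genes with TCF factors in intestinal stem and progenitor cells. HCT116 carries an activating change in beta-catenin itself, so the pathway is on without a ligand. Of 24 Wnt targets listed, 16 were analysed. Of these 14 were above 0, where 54% of all genes were. At least 0.5 log2 units higher were 8 and at least 0.5 lower 1, against 3.38% and 2.37% of all genes. Of the 16, 3 were 2-fold higher, against 0.481% of all genes. The median was 0.45, and 0.23 without the filter on dim probe sets, since LGR5, ASCL2, LEF1 and 3 further targets were below it. With a pseudocount of 64, 5 rather than 8 were at least 0.5 higher. Among the 8, AXIN2 (0.55), SP5 (0.54) and NOTUM (0.54) lay inside their like-brightness ranges, which reached 0.57, 0.55 and 0.59. As for p53, most of this pattern was already known when the list was drawn up.

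SOX9, a transcription factor of intestinal progenitors, had intensities of 864 in untransfected and 2493 in shCTRL cells, with 1623 and 1196 for hairpins #1 and #2 (1.51, like-brightness range -0.48 to 0.46). A second SOX9 probe set differed by 1.30. ZNRF3 and RNF43 are membrane ubiquitin ligases that remove Wnt receptors and so dampen the pathway. ZNRF3 was at 188 and 515, with 440 and 954 for the hairpins (1.38), and RNF43 was at 362 and 929, with 620 and 235 (1.32). Both ligases were higher in shCTRL than in untransfected cells, but hairpin #2 cells had the highest ZNRF3 and the lowest RNF43 of the 4 arrays. AXIN2, another feedback inhibitor, was at 230 and 344 (0.55), and in hairpin #2 cells at 933. BMP4 was at 397 and 804 (0.99). DKK1, a secreted inhibitor of Wnt receptors, was the target at least 0.5 lower, at 6191 and 3986 (-0.63), and the receptor gene EPHB3 was also just below 0 (-0.058).

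Upstream, the Wnt pathway differed little apart from WNT16 and FZD1. WNT16, a ligand, was at 2234 in untransfected and 424 in shCTRL cells, with 1149 and 321 for the hairpins (-2.35, or -1.97 averaged over its probe sets). The receptor gene FZD1 was at 88.1 and 173 (0.86), the 1 ligand or receptor at least 0.5 log2 units higher. With the mean over probe sets, or with the filter at the 75th percentile, 0 were. The 19 ligands and receptors analysed had a median of 0.03. The 18 intracellular components had a median of 0.09. Of them 0 were at least 0.5 log2 units higher and 0 lower, against 3.38% and 2.37% of all genes. The largest difference belonged to the kinase GSK3B (674 and 891, 0.39, or 0.19 averaged over its probe sets). CTNNB1, encoding beta-catenin and chosen here for its role, was at 5803 and 6110 (0.07).

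The SP5 promoter is shown because SP5, a transcription factor and Wnt target (65.4 and 103, 0.54), was the one analysed target whose promoter held the TCF motif CTTTGAT. The motif was sought on either strand in the 250 bases before each start, from RefSeq on GRCh38.p14. It was found in 1 of 20 promoters of the 12 Wnt targets in that table, and in 2.26% of all 35116 promoters. The SP5 sequence lies at chr2:170715087-170715336 on the + strand, and capitals mark the motif, which begins 109 bases before the start.
SP5: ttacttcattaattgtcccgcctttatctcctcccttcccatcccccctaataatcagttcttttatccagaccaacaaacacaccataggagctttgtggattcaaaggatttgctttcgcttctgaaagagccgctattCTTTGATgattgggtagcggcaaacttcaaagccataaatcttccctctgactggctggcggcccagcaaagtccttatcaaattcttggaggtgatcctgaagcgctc
The p53 response element, sought as 2 half-sites with a spacer of 0 to 13 bases, was in 0 of 58 promoters of 40 p53 targets and in 9 of all promoters. A match is a description of letters, and no match says only that they are not in this window.

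ERK output genes were mixed. ERK is the last kinase of the RAS-RAF-MEK-ERK cascade that KSR1 scaffolds, and it induces phosphatases and SPRY proteins that feed back on it. DUSP6, the phosphatase that inactivates ERK, had intensities of 1772 in untransfected and 5805 in shCTRL cells, with 3003 and 3253 for hairpins #1 and #2 (1.70, like-brightness range -0.50 to 0.50). Both further DUSP6 probe sets were higher as well, by 1.29 and 1.93. SPRY4 was at 707 and 1175 (0.72), but DUSP1, which acts on several kinases, was lower at 518 and 371 (-0.47, or -0.22 averaged over its probe sets). Of 17 feedback genes, 2 were at least 0.5 log2 units higher and 0 lower, against 3.38% and 2.37% of all genes. Their median was 0.09. Of 23 ERK-induced factors and ligands, 1 was at least 0.5 higher and 2 lower, against the same shares of all genes, with a median of 0.05. In that group the ETS factor ETV1 was at 336 and 153 (-1.06, or -0.40 averaged over its probe sets). Its relatives ETV4 (253 and 364, 0.50) and ETV5 (720 and 935, 0.37) were higher, but inside their like-brightness ranges, which reached 0.60 and 0.57. The other member at least 0.5 lower was FOSL1 (1413 and 966, -0.54). The 16 scaffolds and kinases of the cascade had a median of 0.03, led by KSR2 (370 and 226, -0.67, or -0.38 averaged over its probe sets).

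The listed genes that handle hairpins or sense foreign RNA mostly differed little. Of 18 small RNA machinery genes analysed, 0 were at least 0.5 log2 units higher and 0 lower, against 3.38% and 2.37% of all genes. Their median was 0.04. XPO5, which exports hairpin precursors from the nucleus, was at 801 and 942 (0.23, or 0.07 averaged over its probe sets), and AGO2, the slicing Argonaute, at 1314 and 1486 (0.18). Of 42 RNA-sensing and interferon-stimulated genes, 20 were below the filter, among them MX1, OAS1, IFIT3 and IFNB1. The 19 analysed had a median of 0.00. Of these 0 were at least 0.5 higher and 1 lower, against 3.38% and 2.37% of all genes. That one was ISG15, a ubiquitin-like interferon-induced protein, at 2011 and 1329 (-0.59). Without the filter on dim probe sets, 1 member was at least 0.5 higher. The helicase gene DDX60L (-1.40, or -0.71 averaged over its probe sets), described with chromosome 4, is not on the RNA-sensing list.

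The lists on drug efflux, lysosomes, ribosomes, chaperones and the ATF4 response held 0 members that were 2-fold different. Over all genes 0.481% were 2-fold higher and 0.369% 2-fold lower. Of 10 drug efflux transporters analysed, ABCC2, an export pump, was at 544 and 275 (-0.94) and the median was -0.08. ABCB1, the classical multidrug pump, was below the filter. The 24 lysosome and autophagy genes had a median of 0.01, with the protease CTSL lower (1251 and 756, -0.72). The autophagy gene ATG12 (-1.57), described with chromosome 5, is not on that list. Of 19 ribosome biogenesis genes 15 were below 0, against 45.9% of all genes, with a median of -0.12. Of them 0 reached 0.5 log2 units, where 3.38% of all genes were that much higher and 2.37% lower. Of 19 endoplasmic reticulum chaperone genes 17 were above 0, against 54% of all genes, with a median of 0.12. Again 0 reached 0.5, against the same shares of all genes. The 23 ATF4 response genes had a median of 0.11, led by the cystine transporter SLC7A11 (292 and 424, 0.51).

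Cell cycle genes were close on both arrays. The 24 G2/M genes had a median of -0.08, with 16 below 0, against 45.9% of all genes. Among those below 0 was the kinase AURKA (1660 and 1197, -0.47), while UBE2C, a ubiquitin enzyme of mitotic exit, was higher (1701 and 2435, 0.51). The 23 G1/S genes had a median of 0.01, with the helicase subunits MCM7 (2942 and 2054, -0.51) and MCM3 (1665 and 1198, -0.47) lowest. Sterol and fatty acid synthesis genes (21, median 0.04) and respiratory chain subunits (20, median -0.01) held 0 members past 0.5 log2 units in either direction. Over all genes 3.38% were that much higher and 2.37% that much lower. The 29 hypoxia and glycolysis genes had a median of 0.00. In that group SLC2A3, a glucose transporter, was at 93.8 and 272 but at 43.0 and 40.9 with the hairpins (1.39), and ANGPTL4, an inhibitor of lipoprotein lipase, was at 755 and 364 (-1.02, or -0.87 averaged over its probe sets).

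**Figure D4:**
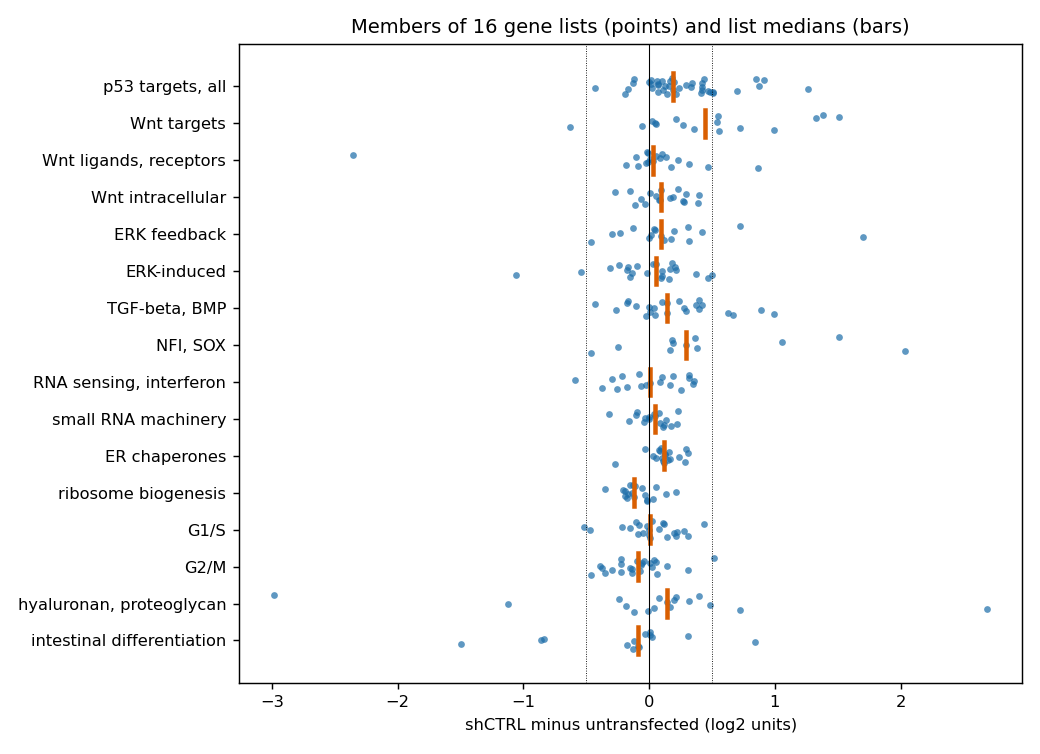
Each point is an analysed member of 1 of 16 gene lists, with its difference of shCTRL minus untransfected in log2 units, and each bar is the list's median. Dotted lines mark -0.5 and 0.5. The Wnt target median of 0.45 is the highest shown, and the small RNA machinery and ER chaperone lists stay within the dotted lines.

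Of 24 TGF-beta and BMP genes analysed, 17 were above 0, against 54% of all genes. At least 0.5 log2 units higher were 4, against 3.38% of all genes, and 0 were as much lower. The median was 0.14. The 4 were BMP4 (given above), ID3, a BMP-induced inhibitor of differentiation factors (738 and 1381, 0.89), the pseudoreceptor BAMBI (263 and 428, 0.67) and the receptor BMPR2 (152 and 244, 0.63, or 0.13 averaged over its probe sets). BAMBI was at 143 with hairpin #1 and 2585 with hairpin #2, so the 2 states compared here lay between the hairpin arrays.

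Transcription factors of the NFI and SOX families included 3 genes 2-fold higher of 11 analysed, against 0.481% of all genes, with a median of 0.29, or 0.18 without the filter. The 3 were NFIB, SOX4 and SOX9, and SOX9 was also counted among the Wnt targets. The list was drawn up with earlier results on these arrays known, so its share is no independent support. NFIB, a chromatin-opening factor of several epithelia, was at 68.2 in untransfected, 329 in shCTRL, 115 in hairpin #1 and 335 in hairpin #2 cells (2.04). Further NFIB probe sets differed by 2.06, 1.68 and 1.58, and the rest, all below the filter, by -0.09 to 0.27. Averaged over its probe sets, NFIB fell below the filter. SOX4 was at 2202 and 4595 in untransfected and shCTRL cells, and at 2391 and 2343 with the hairpins (1.06, or 0.82 averaged over its probe sets). NFIA differed the other way at 320 and 227 (-0.46). High SOX4 was thus seen in shCTRL alone, whereas NFIB was high in shCTRL and hairpin #2 cells.

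Markers of intestinal differentiation were often dim, and a few differed. Of 34 such genes 18 were below the filter. Of the 14 analysed, 3 were at least 0.5 log2 units lower and 1 higher, against 2.37% and 3.38% of all genes. Their median was -0.09. DPP4, a brush border peptidase, was at 296 in untransfected and 94.6 in shCTRL cells, with 122 and 238 for the hairpins, so shCTRL was the lowest array. The Kruppel-like factors KLF4 (2958 and 1626, -0.86) and KLF5 (467 and 254, -0.84, or -0.34 averaged over its probe sets) were lower as well, while the ETS factor EHF was higher (470 and 855, 0.84, or 0.54 averaged over its probe sets). A separate list of epithelial junction and keratin genes had a median of 0.03. It held 2 genes at least 0.5 log2 units higher and 2 lower, against 3.38% and 2.37% of all genes. KRT20, a keratin of differentiated colon cells, was at 166 and 63.7, with 52.5 and 275 for the hairpins (-1.20, or -0.85 with a pseudocount of 64). KRT7 was at 554 and 272 (-0.98, or -0.32 averaged over its probe sets), and KRT23 at 247 and 468 (0.88). KRT20 and KRT7 were thus low in shCTRL and hairpin #1 cells and high in hairpin #2 cells. The brighter keratin genes KRT8 (-0.07), KRT18 (0.03) and KRT19 (0.06) differed little between untransfected and shCTRL cells.

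Adhesion, protease and contractile genes held a few larger differences. Of 20 integrin, laminin and collagen genes, ITGB8 (given above) was 2-fold higher, against 0.481% of all genes. COL18A1, the precursor of endostatin, was at 188 and 368 (0.91), and the collagen receptor subunit ITGA2 was at 1129 and 714 (-0.65). The plasminogen activators PLAT (188 and 435, 1.15) and PLAU (298 and 509, 0.74) were both higher. So was the metalloproteinase inhibitor TIMP2 (0.76, or 0.46 averaged over its probe sets). The list of metalloproteinases and plasminogen activators had a median of 0.07. It held 3 genes at least 0.5 log2 units higher and 0 lower, against 3.38% and 2.37% of all genes. The contractile gene TAGLN was at 119 and 282 (1.15, or 0.70 averaged over its probe sets) and the YAP target AMOTL2 at 183 and 401 (1.06). Of 17 mesenchymal, SRF and YAP genes analysed, 3 were at least 0.5 log2 units higher and 0 lower, against 3.38% and 2.37% of all genes. The 3 were TAGLN, AMOTL2 and MYL9 (0.60, or 0.30 averaged over its probe sets), and the list median was 0.10. Other members were ACTA2 (0.02), TPM1 (0.01), TPM2 (-0.14), VIM (-0.44) and CCN1 (0.19), and CCN2 and ANKRD1 were below the filter. Also below it, and so not counted, were ZEB1 and TWIST1, which differed in opposite directions. ZEB1 was at 71.0 in untransfected and 25.6 in shCTRL cells, and TWIST1 at 31.4 and 82.7. AMOTL2 was at 381 and 386 with the hairpins, like shCTRL, whereas PLAT and TAGLN were highest in shCTRL. With a pseudocount of 64, PLAT (0.99), TAGLN (0.92), AMOTL2 (0.91) and LIF (0.97), a cytokine of the interleukin-6 family, did not reach the 2-fold rule. Of 16 analysed chemokine, cytokine and NF-kappaB genes, LIF was the one 2-fold higher (384 and 813, 1.05), against 0.481% of all genes. A further 15 list members were below the filter.

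The 22 NRF2 and metallothionein genes had a median of 0.06, with the zinc exporter SLC30A1 highest (419 and 668, 0.65, or 0.25 averaged over its probe sets). In that list 2 genes were at least 0.5 log2 units lower, against 2.37% of all genes. They were the malic enzyme gene ME1 (1981 and 1364, -0.53) and GCLC, for glutathione synthesis (1675 and 1171, -0.51). The 8 EGFR family genes had a median of 0.04. Of them 0 were at least 0.5 log2 units higher and 0 lower, against 3.38% and 2.37% of all genes. EGFR itself was at 664 and 811 (0.28). The 4 cancer-testis genes analysed had a median of 0.05.

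Some 2-fold genes are neighbours on a chromosome. Chromosome 6 held 8 of the lower genes (1.25% of its 638 analysed genes), chromosome 4 held 6 (1.44% of 416) and chromosome 5 held 5 (0.933% of 536), against 0.369% over all genes. Median differences over chromosomes 1 to 22 and X lay between -0.01 and 0.04. In all, 5 pairs of adjacent analysed genes were 2-fold in the same direction, named by the rule for neighbours. They were SAMD3 with TMEM200A and AGPAT4 with AGPAT4-IT1 on chromosome 6, DDX60L with PALLD on chromosome 4, FEM1C with ATG12 on chromosome 5, and KLRK1-AS1 with KLRC3 on chromosome 12. AGPAT4-IT1 lies within the span of AGPAT4, and KLRC3 has close paralogs, so signals of these pairs may not be separate.

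A longer stretch lay on chromosome 5 around ATG12, which encodes a ubiquitin-like protein needed to form autophagosomes. It was looked for after the pairs had been seen, with the median difference of every 7 analysed genes in a row. Of 12297 such windows, 6 had a median of at least 0.5 log2 units in size, and all 6 held ATG12. From TRIM36 to COMMD10 all 7 genes were lower in shCTRL, by -0.35 to -1.57 with a median of -0.76. In this stretch untransfected cells were the highest of the 4 arrays for 6 of the 7. The central 95% of windows lay between -0.19 and 0.22.

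There ATG12 was at 7216 in untransfected cells and at 2419, 3033 and 3235 in shCTRL, hairpin #1 and hairpin #2 cells (-1.57). Both further ATG12 probe sets were lower as well, by -1.49 and -1.59. FEM1C, a substrate receptor of a ubiquitin ligase, was at 811 against 380, 472 and 366 (-1.06, or -0.98 with a pseudocount of 64). AP3S1, a subunit of an adaptor for vesicle traffic, was at 11922 against 7580, 8258 and 8414 (-0.65). The other 4 were TRIM36 (-0.70), PGGT1B (-0.35), CCDC112 (-0.87) and COMMD10 (-0.76), chosen for their place beside ATG12. PGGT1B was the gene at which the hairpin arrays were not lower than untransfected cells (461 and 448 against 416). Some genes earlier on the chromosome, EPB41L4A was higher in shCTRL (67.3 and 217, 1.48), as was NREP (215 and 429, 0.94). Further EPB41L4A probe sets, all dimmer, differed by 0.00 to 0.36.

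**Figure D5:**
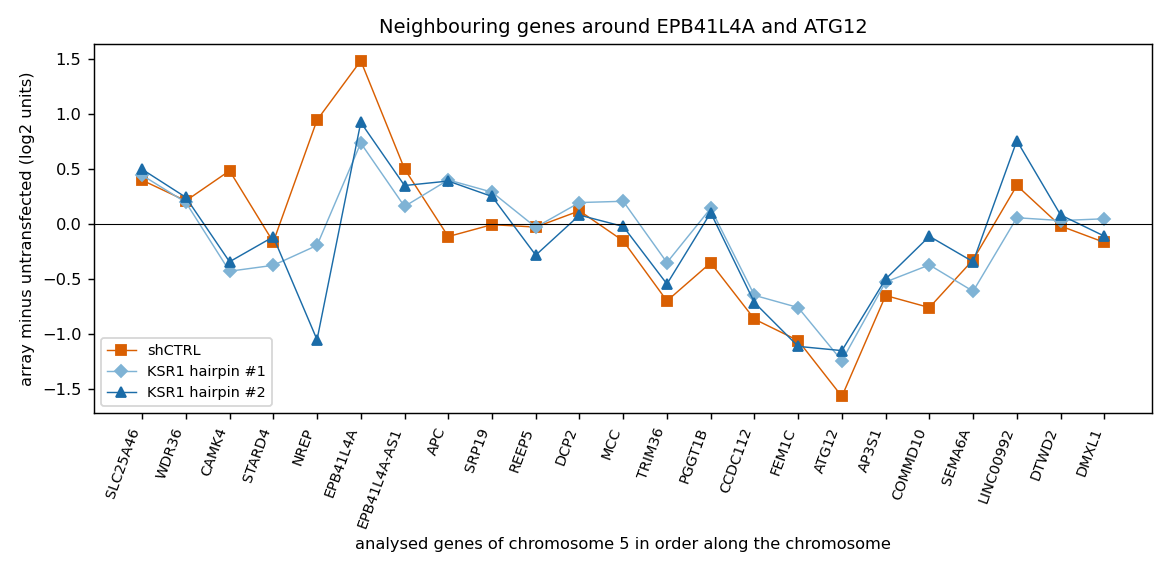
Analysed genes of chromosome 5 are shown in their order along the chromosome (not to distance), with the log2 difference of shCTRL and of each KSR1 hairpin array from the same untransfected array on the vertical axis. All 3 differences share that array. From CCDC112 to AP3S1 all 3 lie below -0.5, and EPB41L4A lies above 0 in all 3.

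SAMD3 and TMEM200A on chromosome 6 have RefSeq starts beside each other that run in opposite directions, although their annotated spans overlap. SAMD3 was at 187 in untransfected cells and below the filter value in shCTRL (45.0), hairpin #1 (43.7) and hairpin #2 cells (16.5). TMEM200A was at 1088, 433, 319 and 59.3 in the same order (-1.30). Both genes were thus highest in untransfected and lowest in hairpin #2 cells, while the next genes on either side, L3MBTL3 (-0.18) and EPB41L2 (0.01), were near 0. The 148 bases between the 2 starts are shown because both genes share them as upstream sequence. They lie at chr6:130365869-130366016 on GRCh38.p14, + strand, from RefSeq promoter windows, and capitals mark CG pairs.
SAMD3-TMEM200A: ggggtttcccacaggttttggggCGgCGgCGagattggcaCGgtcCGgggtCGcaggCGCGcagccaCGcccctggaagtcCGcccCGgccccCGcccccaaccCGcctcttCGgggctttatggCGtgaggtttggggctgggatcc
The sequence holds 15 CG pairs and is 72.3% G or C. Of all 35116 promoters, 26.4% have at least as many CG pairs in the 148 bases before the start, so such a density is not rare. The density was 10.1 CG pairs per 100 bases here and 5.47 over all promoters. Over all promoters 57.2% of bases were G or C. Both of these levels over all promoters were counted in 250 bases rather than 148, so the windows are unlike. No methylation was measured here.

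On chromosome 4, PALLD, encoding the actin-binding palladin, was at 5628 in untransfected and 2149 in shCTRL cells, with 3155 and 1561 for the hairpins (-1.38). DDX60L, a helicase gene, was at 1314 and 487, with 879 and 481 (-1.40, or -0.71 averaged over its probe sets). ANXA10 lies close by in the same order of genes, separated from DDX60L by DDX60, which was at 147 and 149 (0.02). The low genes in this place were therefore not an unbroken run.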

How the data were processed

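Total RNA was labelled as biotinylated cRNA and hybridised to 1-colour Affymetrix arrays, per the labels. The authors deposited 1 linear intensity per probe set and array. How these were background-corrected, summarised and scaled was not stated in the sources used. No sequencing depth applies, and no detection calls were used. Of 54675 probe sets, 41097 had 1 gene symbol in the platform annotation, 1801 several and 11777 none. RefSeq identifiers (GRCh38.p14) matched 41043 of the former. Each gene was represented by the probe set brightest on average over 4 arrays, as log2(intensity + 16), and genes reaching the median of all probe sets, 6.08, were analysed. With 1 array per state no test was possible. Work was done in Python 3.11.15 with numpy 2.4.6, pandas 2.3.3 and matplotlib 3.10.9.

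Named genes are KSR1, the 15 highest and 15 lowest, up to 4 members of each of 40 lists by size of difference, and 2-fold neighbours. Genes named beyond this rule, list members past the first 4 included, were chosen after their values were seen. Genes of the Y chromosome and XIST were counted but not reported by name, which leaves 3 of the 46 lower genes unnamed. Members and lists (878 genes, 640 analysed) were chosen with earlier results of these data known. Genes without a value were not analysed here. Alternatives were other pseudocounts, filters, probe set choices and normalizations.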

Additional observations from a re-analysis of the deposited data

Results flagged for a closer look

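Probe sets that carry no gene symbol, or several, stood outside the comparison, and they too differed between the arrays. Of 13522 such probe sets 4554 passed the filter, and 9 of these were at least 2-fold higher in shCTRL (0.198%) and 19 at least 2-fold lower (0.417%). They were noted because they are signal in data that the gene comparison did not use, and they were not named.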

How the results depend on the processing

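With 1 array per state no value here has a replicate error, so every difference describes these arrays only. Across 8 alternatives the 2-fold counts moved most as follows. With a pseudocount of 64, 38 genes were higher and 31 lower. With the filter at the 75th percentile, where fewer genes were analysed, 31 were higher and 26 lower. With the mean over probe sets, 34 were higher and 28 lower, and all 34 and 28 were among the 60 and 46. The other settings gave 55 to 75 higher and 44 to 52 lower genes. Of 1349 recomputed values of named genes, 0 turned the sign of a 2-fold gene and 53 moved by more than the like-brightness SD. Of the recomputed list medians, those that moved by over 0.1 were these. Without the filter: Wnt targets 0.23, NFI and SOX factors 0.18, cancer-testis genes -0.069, and endothelial markers, whose sign turned, -0.017. With the 75th percentile filter: p53 repair and secreted genes 0.42, Wnt targets 0.55, RNA sensing genes 0.17, glycerolipid genes -0.0552, metalloproteinases 0.26, intestinal differentiation -0.48 and fibroblast markers -0.11. With the mean over probe sets: drug efflux 0.0398, glycerolipid genes -0.0539, NFI and SOX factors 0.18, leukocyte markers 0.33 and endothelial markers 0.24. Medians near 0 changed sign in this way for cancer-testis genes, glycerolipid genes, drug efflux and fibroblast markers as well. The cause of these shifts was not tested. Leukocyte and endothelial markers had no member past the 75th percentile. No paired analysis was possible because each state has 1 array, and no replicate could be left out for the same reason.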

Other observations

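Several genes that belong to no list were also 2-fold and are given as values, chosen after they had been seen. S100A4, a calcium-binding protein tied to cell motility, had intensities of 3317 in untransfected cells and 7393, 7540 and 6937 in shCTRL, hairpin #1 and hairpin #2 cells (1.15), so untransfected cells were the low array. The long noncoding UCA1 was at 1910, 5160, 3156 and 6734 in the same order (1.43), again with untransfected cells lowest. RGS2, which curbs G protein signalling, was at 1311 in untransfected and 2268 in hairpin #2 cells but at 443 and 446 in shCTRL and hairpin #1 cells (-1.53). With PPARG, GRHL3, KRT20 and KRT7, RGS2 had shCTRL and hairpin #1 cells low and the other 2 arrays high.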
